A study of Homo sapiens with 9 samples.

Results

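The expression of 10 genes of collagen modification and cross-linking was followed in hypoxic colorectal cancer cells. They were chosen by name: the prolyl 4-hydroxylase alpha subunits P4HA1, P4HA2 and P4HA3 with their shared beta subunit P4HB, the lysyl hydroxylases PLOD1, PLOD2 and PLOD3, the collagen galactosyltransferase COLGALT1, and the lysyl oxidases LOX and LOXL2. All 10 were found by Ensembl identifier among the 41041 genes measured, and 8 of them were among the 12662 genes with a mean of at least 1 FPKM (fragments scaled by transcript length and library size) over the libraries. Their identifiers are ENSG00000122884 (P4HA1), ENSG00000072682 (P4HA2), ENSG00000149380 (P4HA3), ENSG00000185624 (P4HB), ENSG00000083444 (PLOD1), ENSG00000152952 (PLOD2), ENSG00000106397 (PLOD3), ENSG00000113083 (LOX), ENSG00000134013 (LOXL2) and ENSG00000130309 (COLGALT1). The 8 genes above that level were tested, while LOX and P4HA3 lay below that level and are described by their values.

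The cells were SW480, an established human colorectal cancer line, and all 9 libraries came from cells kept at 1% oxygen for 48 h. The 3 groups of 3 biological replicates were an untreated hypoxic control, cells given 25 µM sulforaphane (SFN), an isothiocyanate from cruciferous vegetables, and cells given SFN together with 5-fluorouracil, a pyrimidine analogue (SFN+5-FU). For the combination, neither dose is stated in the labels used here. The design holds neither a normoxic group nor 5-FU alone, so no value below shows what hypoxia or 5-FU did by itself. Poly(A) RNA was taken from whole cultures, so a change in the make-up of the culture and a change of RNA per cell cannot be told apart.

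Collagen chains are modified inside the endoplasmic reticulum before they leave the cell. Prolyl 4-hydroxylase, a tetramer of alpha and beta subunits, makes the hydroxyproline that keeps the triple helix stable, and lysyl hydroxylases make hydroxylysine, which COLGALT1 can glycosylate. These hydroxylases need oxygen, 2-oxoglutarate, iron and ascorbate. Lysyl oxidases are copper enzymes that act outside the cell, where they oxidise lysine and hydroxylysine so that fibres become cross-linked. P4HA1, P4HA2, PLOD2, LOX and LOXL2 are known targets of the hypoxia-inducible factor HIF-1 in many cell types.

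The library labelled SFN replicate 2 stood with the SFN+5-FU libraries: for 8 of 8 tested genes of the set it lay closer to the SFN+5-FU mean than to the other SFN libraries, against 1 of 8 for SFN replicate 1 and 1 of 8 for SFN replicate 3. This was not particular to the set. Over all tested genes SFN replicate 2 had a Pearson correlation of log2(FPKM + 1) of 0.993 with each SFN+5-FU library. With SFN replicates 1 and 3 it had 0.963 and 0.968. It was kept under its label, and results that hinge on it are also given without it. Of 9 epithelial markers 7 had a mean of at least 1 FPKM, and their summed level was 2552 to 2595 FPKM in control, 1767 to 2383 FPKM with SFN and 1707 to 1722 FPKM with SFN+5-FU. Fibroblast markers summed to at most 4.86 FPKM with FAP at 0, endothelial markers to at most 0.92 FPKM with CDH5 at 0, and leukocyte markers to at most 10.1 FPKM with PTPRC at 0 in every library. Among the epithelial markers KRT18 measured 916 to 936 FPKM in control and 618 to 631 FPKM with SFN+5-FU. CDH1 measured 12.65 to 15.36 and 4.65 to 5.82 FPKM, while EPCAM overlapped, at 125 to 133 and 114 to 126 FPKM. The leukocyte sum was 2.28 to 2.50 FPKM in control and 6.91 to 10.1 FPKM with SFN+5-FU, where CD68 alone measured 5.59 to 8.96 FPKM. The part of these differences in the results below was not tested.

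In control cells the beta subunit gene P4HB had the highest level of the set, with 60.3 ± 0.507 FPKM (mean ± SD, n = 3), followed by PLOD3 with 44.3 ± 0.886 FPKM. PLOD1 (29.6 ± 2.69 FPKM) and P4HA1 (28.8 ± 2.26 FPKM) overlapped, as did P4HA2 (24.0 ± 1.43 FPKM) and LOXL2 (21.9 ± 2.59 FPKM) below them. COLGALT1 stood lower at 15.6 ± 0.791 FPKM. PLOD2 (1.76 ± 0.142 FPKM), LOX (0.443 ± 0.135 FPKM) and P4HA3 (0.0300 ± 0.0173 FPKM) followed without overlap. With SFN+5-FU the middle of this order had turned over: COLGALT1 (20.2 ± 0.924 FPKM) and P4HA2 (19.2 ± 1.1 FPKM) overlapped, and both lay above P4HA1 (16.3 ± 0.766 FPKM) and LOXL2 (4.92 ± 0.464 FPKM). With SFN alone P4HB and PLOD3 overlapped, and so did every pair of neighbours from PLOD1 through P4HA1 and P4HA2 to COLGALT1.

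**Figure D1:**
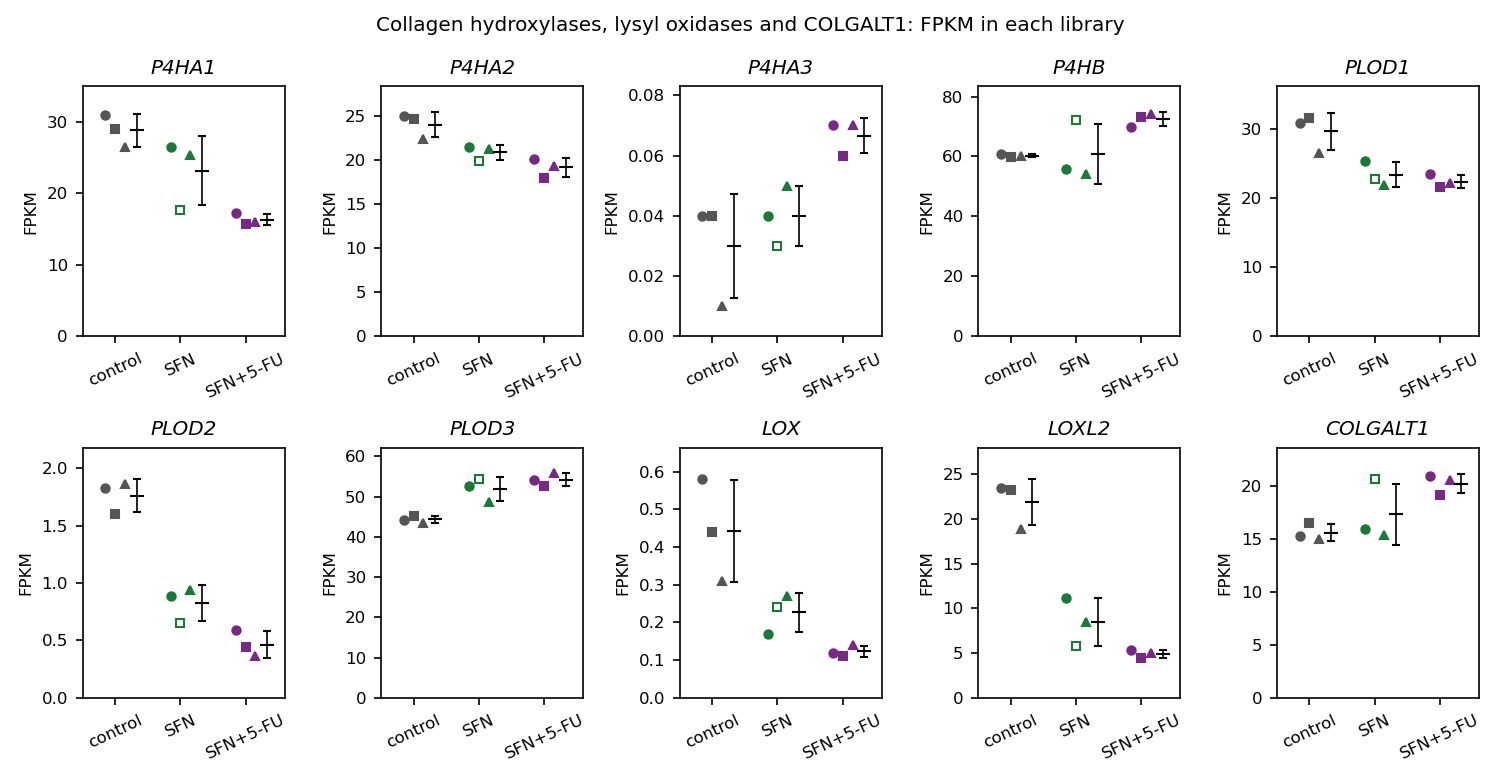
FPKM of each of the 10 genes in the 9 libraries, 1 panel per gene with its own linear axis from 0. Circles, squares and triangles are replicates 1, 2 and 3, the hollow square is SFN replicate 2, and the black tick and bar are the group mean ± SD. LOXL2, PLOD2, PLOD1, P4HA2 and LOX are lower in all 6 treated libraries than in all 3 control libraries, while PLOD3 is higher in all 6.

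The first comparison asks what SFN changes in hypoxic cells. LOXL2, PLOD2, PLOD1 and P4HA2 fell and PLOD3 rose, which makes 5 of 8 tested genes called by limma at an adjusted p of 0.05 or less, against 50.0% of all tested genes (27.5% called higher and 22.5% called lower). The second comparison sets SFN+5-FU against the control. There LOXL2, PLOD2, P4HA1, PLOD1 and P4HA2 fell and PLOD3, P4HB and COLGALT1 rose, which makes 8 of 8, against 66.2% of all tested genes (38.3% higher and 28.0% lower). Both comparisons use the same 3 control libraries. PLOD2 reached a mean of 1 FPKM only through these control libraries (0.645 FPKM on average in the treated ones). That choice of genes favours its falls, which are included in the counts and medians here. The median log2 fold change of the 8 genes was -0.25 with SFN and -0.35 with SFN+5-FU, beside medians of 0.05 and 0.10 over all tested genes, and the first was -0.15 without SFN replicate 2. Without that library 5 of 8 were again called with SFN, against 56.9% of all tested genes (30.0% higher and 26.9% lower), but P4HB took the place of P4HA2 among those that fell. With SFN+5-FU 8 of 8 were called without it, 3 higher and 5 lower, against 74.7% of all tested genes (43.4% higher and 31.3% lower).

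**Figure D2:**
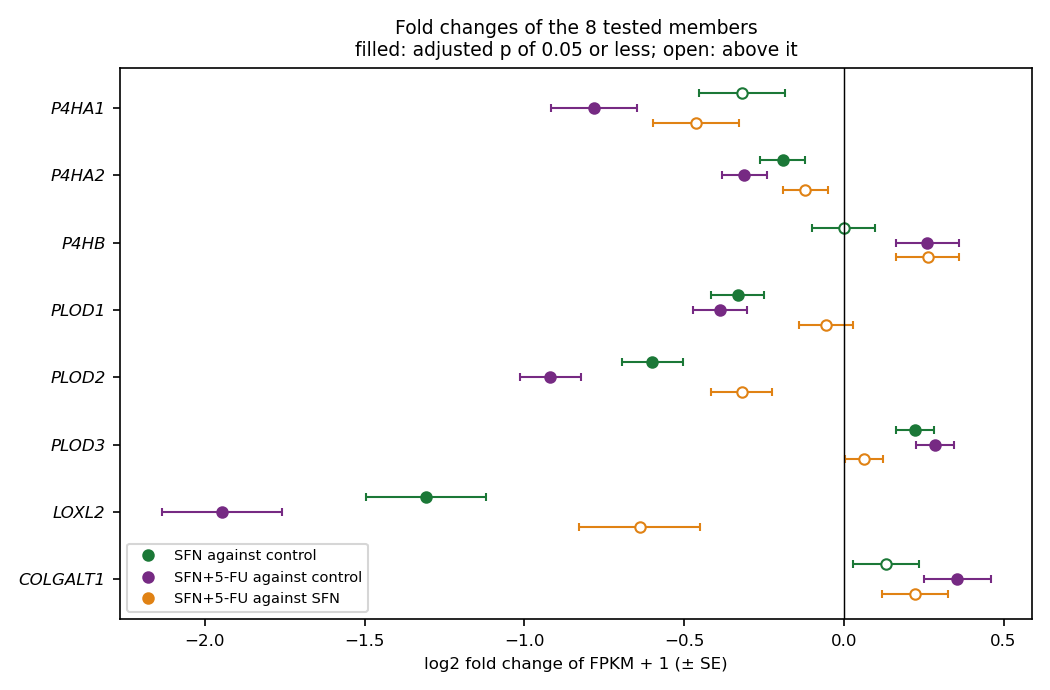
Log2 fold changes of the 8 tested genes on the log2(FPKM + 1) scale in 3 comparisons, with bars of 1 SE from limma. Filled points passed the adjusted p of 0.05 and open points did not, and the vertical line marks no change. LOXL2 has the largest falls of the 8 genes, -1.31 with SFN and -1.95 with SFN+5-FU, and all points of SFN+5-FU against SFN are open.

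The prolyl 4-hydroxylase subunits moved apart when SFN was combined with 5-FU: the alpha subunit genes P4HA1 and P4HA2 fell and P4HB rose. The call of the P4HB rise held in only 10 of 19 alternatives, as described below. The 5′ promoter sequences of P4HA1 and P4HB are shown because the 2 subunit genes moved in opposite directions and P4HA1 is a known HIF-1 target. They are from RefSeq on GRCh38.p14, run from 250 bases before to 50 bases after the start of the gene, and are written 5′ to 3′ on the gene's strand. P4HA1 lies on the minus strand at chr10:73096817-73097116 and P4HB on the minus strand at chr17:81860486-81860785. Capitals mark the core of the hypoxia response element, searched as ACGTG and as GCGTG on both strands (CACGT and CACGC on the reverse strand).
P4HA1: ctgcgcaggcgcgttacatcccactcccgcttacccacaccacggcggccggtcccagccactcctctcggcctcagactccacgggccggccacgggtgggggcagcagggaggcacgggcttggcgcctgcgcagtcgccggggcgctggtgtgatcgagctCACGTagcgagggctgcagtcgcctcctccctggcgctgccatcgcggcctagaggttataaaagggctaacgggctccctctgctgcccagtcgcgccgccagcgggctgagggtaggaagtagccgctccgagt
P4HB: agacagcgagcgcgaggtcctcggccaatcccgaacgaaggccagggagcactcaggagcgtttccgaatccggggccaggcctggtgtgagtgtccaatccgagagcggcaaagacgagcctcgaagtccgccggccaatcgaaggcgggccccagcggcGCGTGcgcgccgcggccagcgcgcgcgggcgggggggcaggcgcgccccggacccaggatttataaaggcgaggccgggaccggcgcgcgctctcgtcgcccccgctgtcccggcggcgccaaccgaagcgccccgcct

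The P4HA1 promoter held 1 such core, with its first base at position -86 from the start, and the P4HB promoter held 1 at position -89. In all 35116 promoters of the table, ACGTG was present in 21.4%, GCGTG in 36.5% and either in 48.4%. A match of 5 letters is a description of the sequence and not evidence of binding.

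P4HA1 encodes the main alpha subunit in most cells. It measured 30.95, 29.07 and 26.45 FPKM in control replicates 1 to 3, 26.57, 17.73 and 25.33 FPKM with SFN, and 17.21, 15.79 and 16.00 FPKM with SFN+5-FU. All SFN+5-FU values lay below all others, SFN replicate 2 came next to them, and SFN replicates 1 and 3 lay near the lowest control. With SFN+5-FU it fell by 0.78 on the log2 scale (SE 0.135, adjusted p = 0.000883 by limma), a mean 1.76-fold lower. With SFN alone its log2 fold change of -0.32 was not called (adjusted p = 0.0763), and it was -0.14 without SFN replicate 2 (adjusted p = 0.113). Without SFN replicate 1 it was -0.42 and called (adjusted p = 0.0300).

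P4HA2, the second alpha subunit, measured 25.03, 24.70 and 22.41 FPKM in control, 21.54, 19.96 and 21.28 FPKM with SFN and 20.19, 18.01 and 19.33 FPKM with SFN+5-FU. Every treated library lay below every control library, by a smaller margin than for P4HA1 with SFN+5-FU. It fell by 0.31 with SFN+5-FU (SE 0.0698, adjusted p = 0.00357 by limma). With SFN it fell by 0.19 (adjusted p = 0.0458), a call that was lost in 12 of 19 alternatives, including each in which 1 library other than control replicate 3 was left out, with an adjusted p of up to 0.154. P4HA3, the third alpha subunit, was at most 0.07 FPKM in every library. Its gene overlaps PPME1 on the opposite strand, and the counting was not stated to use strand.

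P4HB, which also works as a protein disulfide isomerase, measured 60.83, 59.83 and 60.18 FPKM in control and 69.99, 73.17 and 74.31 FPKM with SFN+5-FU. The SFN libraries measured 55.96, 72.17 and 54.18 FPKM, so replicates 1 and 3 lay below all controls and replicate 2 above them. With SFN+5-FU P4HB rose by 0.26 (SE 0.0986, adjusted p = 0.0402 by limma). This call was lost in 9 of 19 alternatives: without any 1 of the control or SFN+5-FU libraries (adjusted p = 0.0637 to 0.105), with no filter, and with either rescaling of the libraries, where quantile normalization gave 0.11 (adjusted p = 0.319). With SFN its log2 fold change was 0.00 to 2 decimals (adjusted p = 0.999), and without SFN replicate 2 it was -0.13 and called (adjusted p = 0.0351).

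Within a library the scaling of FPKM cancels, so the balance of the subunits was also read as a ratio. The summed alpha subunits were 0.878 ± 0.0577 of P4HB in control and 0.492 ± 0.0386 in SFN+5-FU (mean ± SD, n = 3), with no overlap (exact permutation p = 0.1, two-sided, the smallest that 3 against 3 allows). With SFN the ratio was 0.860, 0.523 and 0.861 in replicates 1 to 3, so replicates 1 and 3 lay within the control range of 0.812 to 0.921 and replicate 2 below it (exact permutation p = 0.4). P4HA1 made up 54.5% ± 0.680 of the alpha subunit FPKM in control and 45.9% ± 0.718 with SFN+5-FU, again without overlap (exact permutation p = 0.1). With SFN this share was 55.2%, 47.0% and 54.3% (exact permutation p = 0.8), a difference from control of -2.31 percentage points that was 0.269 without SFN replicate 2.

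**Figure D3:**
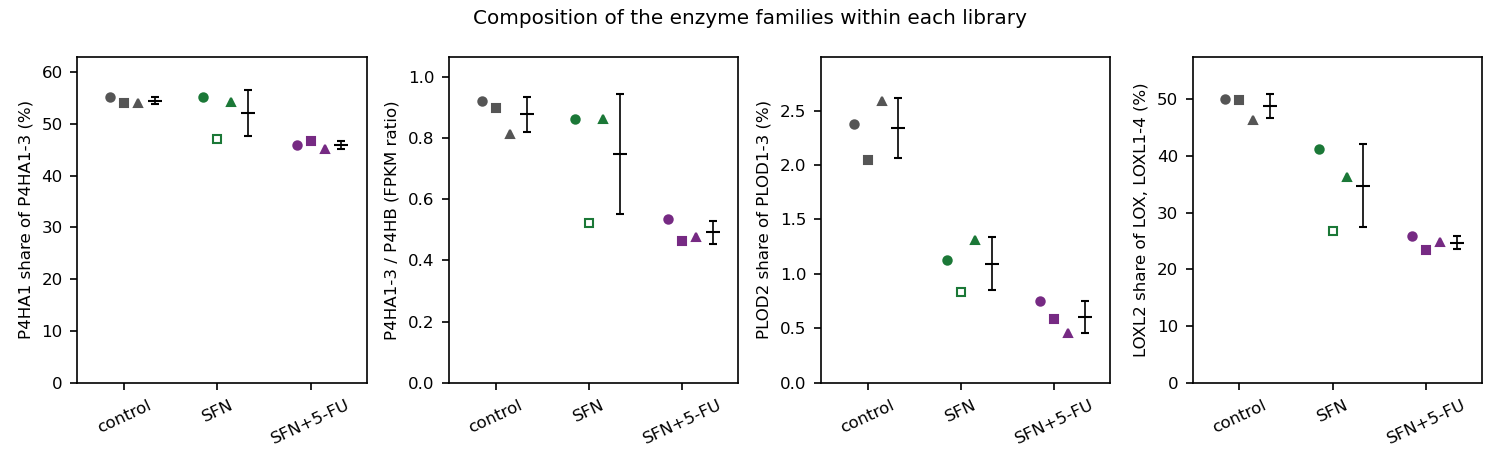
Composition of the enzyme families within each library: the shares of P4HA1, PLOD2 and LOXL2 in percent of the summed FPKM of their families, and the ratio of summed alpha subunit FPKM to P4HB FPKM, on linear axes from 0. Symbols are the replicates (hollow square, SFN replicate 2), and the black tick and bar are the group mean ± SD. The alpha to beta ratio of SFN replicate 2 is 0.523, within the SFN+5-FU range of 0.463 to 0.535, while the other SFN libraries stand at 0.860 and 0.861.

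The lysyl hydroxylases changed in their proportions, while their summed levels overlapped between groups. PLOD2, which hydroxylates the telopeptide lysines of collagen, fell in both treated groups, PLOD1, which acts on helical lysines, fell by less, and PLOD3, which also carries glycosyltransferase activity, rose. The promoters of PLOD2 and PLOD3 are shown because these genes had the largest fall and the only rise of the family, and because they differ in the hypoxia response element core (capitals as above). In RefSeq on GRCh38.p14 PLOD2 lies on the minus strand at chr3:146161135-146161434 and PLOD3 on the minus strand at chr7:101217532-101217831.
PLOD2: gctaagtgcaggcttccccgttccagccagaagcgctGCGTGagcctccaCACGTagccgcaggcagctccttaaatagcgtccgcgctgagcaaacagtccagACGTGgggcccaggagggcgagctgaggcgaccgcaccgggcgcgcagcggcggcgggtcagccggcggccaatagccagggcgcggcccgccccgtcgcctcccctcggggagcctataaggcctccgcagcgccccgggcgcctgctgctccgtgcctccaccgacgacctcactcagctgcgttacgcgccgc
PLOD3: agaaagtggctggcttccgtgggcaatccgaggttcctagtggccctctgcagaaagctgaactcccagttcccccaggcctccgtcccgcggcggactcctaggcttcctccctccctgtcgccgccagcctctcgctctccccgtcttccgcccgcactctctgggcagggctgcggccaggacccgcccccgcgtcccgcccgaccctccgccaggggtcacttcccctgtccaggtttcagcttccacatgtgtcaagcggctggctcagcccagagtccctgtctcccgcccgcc

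The PLOD2 promoter held 3 cores, with first bases at positions -213, -200 and -146, and the PLOD3 promoter held none in this window. Of the 8 genes of the set that were read in the promoter table, 6 held either core: PLOD1 had 2, COLGALT1 had 2, LOX had 4 in the most upstream of its 3 listed promoters, and P4HA2 had none. Genes with a core in the window were found among those that fell (P4HA1, PLOD1, PLOD2) and those that rose with SFN+5-FU (P4HB, COLGALT1), and the same holds for genes with none (P4HA2 and PLOD3). No promoter of LOXL2 or P4HA3 was read, and whether the cores bear on the direction of change was not tested.

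PLOD2 measured 1.83, 1.60 and 1.86 FPKM in control, 0.89, 0.65 and 0.94 FPKM with SFN and 0.59, 0.44 and 0.36 FPKM with SFN+5-FU. The 3 groups did not overlap. The mean was 2.13-fold lower with SFN and 3.81-fold lower with SFN+5-FU, and on the log2(FPKM + 1) scale it fell by 0.60 (SE 0.0954, adjusted p = 0.000914 by limma) and by 0.92 (adjusted p = 5.97e-05). It passed the filter through the control libraries alone, since its mean over the treated libraries was 0.645 FPKM, and only 0.49% of tested genes had a lower mean. Its fold change depends on the pseudocount: with SFN it was -1.02 with a pseudocount of 0.1 and -0.22 with one of 5, called with both.

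PLOD1 measured 30.84, 31.49 and 26.54 FPKM in control, 25.31, 22.76 and 21.82 FPKM with SFN and 23.45, 21.53 and 22.07 FPKM with SFN+5-FU. It fell by 0.33 with SFN (SE 0.0839, adjusted p = 0.00965 by limma) and by 0.39 with SFN+5-FU (adjusted p = 0.00296), and both calls held in 19 of 19 alternatives. The treated groups overlapped each other and lay below every control library.

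PLOD3 measured 44.28, 45.22 and 43.45 FPKM in control, 52.65, 54.45 and 48.72 FPKM with SFN and 54.19, 52.58 and 55.92 FPKM with SFN+5-FU. All 6 treated libraries lay above all controls, and the treated groups overlapped. It rose by 0.22 with SFN (SE 0.0599, adjusted p = 0.0128 by limma, 0.0781 after quantile normalization) and by 0.29 with SFN+5-FU (adjusted p = 0.00253). PLOD3 overlaps ZNHIT1 on the opposite strand, which measured 24.8, 27.5 and 24.8 FPKM on average in control, SFN and SFN+5-FU.

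Together the 3 lysyl hydroxylases summed to 75.7 ± 3.41 FPKM in control, 76.1 ± 4.0 FPKM with SFN and 77.0 ± 2.16 FPKM with SFN+5-FU, and the groups overlapped (exact permutation p = 0.8 and 0.6 against control). Within that sum PLOD3 held 58.6% ± 1.64 in control, 68.3% ± 1.58 with SFN and 70.4% ± 1.06 with SFN+5-FU. PLOD2 held 2.34% ± 0.275, 1.09% ± 0.242 and 0.601% ± 0.148. Neither share overlapped between the control and a treated group (exact permutation p = 0.1 each, the smallest possible). PLOD2 was at most 2.59% of the sum in every library, so most of the shift in FPKM lay between PLOD1 and PLOD3.

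COLGALT1, which adds galactose to hydroxylysine, measured 15.24, 16.48 and 15.01 FPKM in control and 20.89, 19.15 and 20.56 FPKM with SFN+5-FU, without overlap. With SFN it measured 15.93, 20.62 and 15.34 FPKM, so only replicate 2 stood at the level of the combination. It rose by 0.36 with SFN+5-FU (SE 0.104, adjusted p = 0.0138 by limma, 0.0834 after quantile normalization). With SFN its log2 fold change was 0.13 (adjusted p = 0.315) and 0.01 without SFN replicate 2.

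LOXL2, a lysyl oxidase that also acts on basement membrane collagen, had the largest change of the set. It measured 23.43, 23.30 and 18.88 FPKM in control, 11.18, 5.75 and 8.46 FPKM with SFN and 5.32, 4.41 and 5.02 FPKM with SFN+5-FU. The 3 groups did not overlap, although SFN replicate 2 stood next to the combination. Its mean was 2.58-fold lower with SFN, a fall of 1.31 on the log2 scale (SE 0.188, adjusted p = 0.000539 by limma), and a fall of 1.08 without SFN replicate 2. With SFN+5-FU the mean was 4.45-fold lower, a fall of 1.95 (adjusted p = 4.28e-05). Of all tested genes 1.37% had a lower log2 fold change with SFN and 0.798% with SFN+5-FU. ENTPD4 overlaps LOXL2 on the same strand and measured 9.79, 7.75 and 7.36 FPKM on average in the 3 groups.

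LOX, the founding enzyme of the family, was low: 0.58, 0.44 and 0.31 FPKM in control, 0.17, 0.24 and 0.27 FPKM with SFN and 0.12, 0.11 and 0.14 FPKM with SFN+5-FU. These 3 groups did not overlap, but the values lay below the filter. In a fit without the filter, chosen for LOX and P4HA3 after the values were seen, its log2 fold change was -0.23 with SFN (adjusted p = 0.0544 by limma) and -0.36 with SFN+5-FU (adjusted p = 0.00598). LOX overlaps SRFBP1 on the opposite strand, which measured 1.87, 3.99 and 4.67 FPKM on average in the 3 groups, the opposite direction.

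LOXL2 was set beside the other lysyl oxidases, of which LOXL1 and LOXL4 also fell. LOXL1, known for its role in elastic fibres, fell from 4.11 ± 0.150 FPKM in control to 1.73 ± 0.208 FPKM with SFN and 1.16 ± 0.139 FPKM with SFN+5-FU (adjusted p = 6.25e-05 and 1.07e-05 by limma). LOXL4 fell from 14.5 ± 1.06 FPKM to 8.82 ± 1.13 and 8.76 ± 0.435 FPKM (adjusted p = 0.000540 and 0.000313). LOXL3, named here to complete the family after its values were seen, rose from 3.85 ± 0.360 FPKM to 4.73 ± 0.412 and 4.90 ± 0.176 FPKM (adjusted p = 0.0376 and 0.0135, up to 0.141 and 0.0586 in the alternatives). The 5 genes summed to 44.8 ± 3.47 FPKM in control, 24.0 ± 2.93 FPKM with SFN and 19.9 ± 0.956 FPKM with SFN+5-FU, without overlap (exact permutation p = 0.1 for each comparison). LOXL2 held 48.8% ± 2.10 of that sum in control, 34.8% ± 7.28 with SFN and 24.7% ± 1.18 with SFN+5-FU. With SFN the values of LOXL2 and LOXL4 overlapped, and with SFN+5-FU every LOXL4 value lay above every LOXL2 value.

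**Figure D4:**
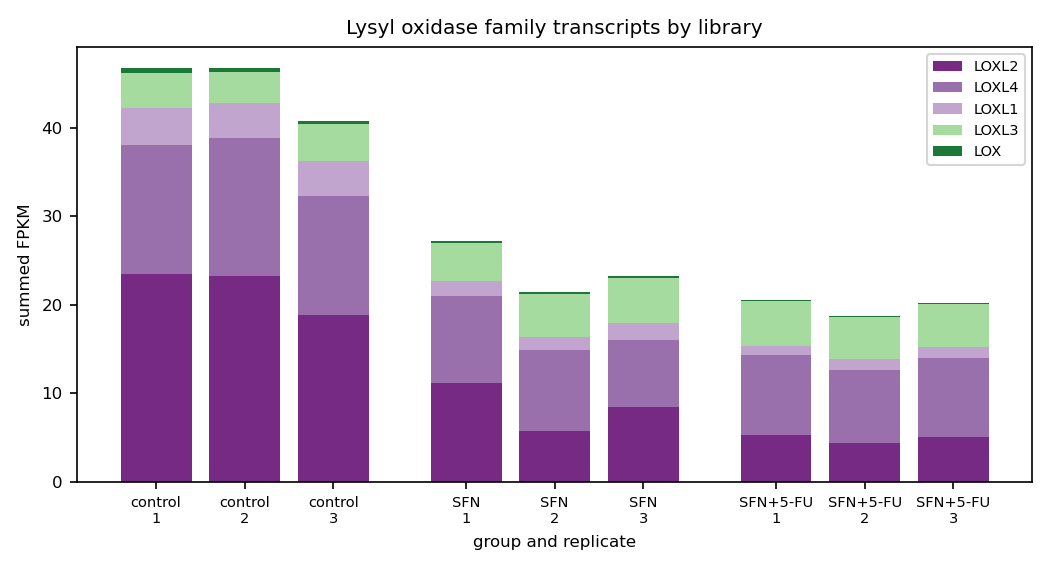
Stacked bars of the summed FPKM of the 5 lysyl oxidase genes, 1 bar per library on a linear axis from 0, with 1 colour per gene. The LOXL2 segment shrinks from a mean of 21.9 FPKM in control to 8.46 FPKM with SFN and 4.92 FPKM with SFN+5-FU, the LOXL1 and LOXL4 segments are also smaller in every treated bar, and LOX is barely visible.

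The third comparison asks what adding 5-FU to SFN changed, with the limit that the SFN dose of the combination is not given. No gene of the set was called (0 of 8 by limma), beside 1 of 12662 genes in all (0.00790%, lower). At an unadjusted p under 0.05 there were 4 of the 8, P4HA1, LOXL2, PLOD2 and P4HB, beside 3982 of all 12662 tested genes. Without SFN replicate 2, 5 of 8 were called, against 51.2% of all tested genes (29.8% higher and 21.4% lower). LOXL2 (-0.86, adjusted p = 0.000671), P4HA1 (-0.64, adjusted p = 0.000158) and PLOD2 (-0.39, adjusted p = 0.00621) were then lower with SFN+5-FU. P4HB (0.39, adjusted p = 0.000177) and COLGALT1 (0.35, adjusted p = 0.00151) were then higher. PLOD1 (-0.07), PLOD3 (0.10) and P4HA2 (-0.15) were not called without that library either.

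By the root mean square difference of centred log2(FPKM + 1) values over the 9 libraries, the genes most like LOXL2 were WFS1 (0.0683), PFKFB4 (0.0697) and PALD1 (0.0745), among 6811 genes with a symbol and a mean of at least 5 FPKM. For P4HA1 they were EIF4G3 (0.0553), LONP1 (0.0583) and IARS2 (0.0592), and for P4HA2 UBE2O (0.0358), PLXNA1 (0.0369) and MEN1 (0.0400). For P4HB they were PDCL (0.0332), INPP5K (0.0344) and TMUB2 (0.0378), and for COLGALT1 IST1 (0.0328), ABCC5 (0.0368) and MED24 (0.0420). Among the genes closest to PLOD3 were RPS25 (0.0187) and SUGP1 (0.0278). PLOD1 ran closest to BCAT2 (0.0392), PDXK (0.0436) and RAB43 (0.0451), and PLOD2 to OXR1 (0.0529), RCBTB1 (0.0537) and SNX9 (0.0595).

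Collagen chains are the substrates of these enzymes. Of 34 collagen chain genes in the table, 8 were tested, and 6 fell and none rose with SFN (median log2 fold change -0.37), while 7 fell and none rose with SFN+5-FU (median -0.48). COL18A1, a basement membrane collagen, fell from 36.1 ± 2.66 to 11.8 ± 2.93 and 7.16 ± 0.278 FPKM, and COL9A3, a chain of the fibril-associated type IX collagen, from 86.1 ± 3.60 to 32.1 ± 4.59 and 26.5 ± 2.11 FPKM. Their log2 fold changes were -1.56 and -1.41 with SFN and -2.18 and -1.67 with SFN+5-FU. COL1A1, which like PLOD2 passed the filter only through the control libraries, averaged 0.665 FPKM in the treated ones. Its falls, which the filter favours, are included in these counts and medians. COL7A1, the chain of anchoring fibrils, measured 4.01 ± 0.229 FPKM in control, 4.40 ± 1.53 FPKM with SFN and 5.53 ± 0.687 FPKM with SFN+5-FU. Its log2 fold change with SFN+5-FU was 0.38 and not called (adjusted p = 0.0774 by limma), and without SFN replicate 2 it was called (adjusted p = 0.00334), which makes 1 rise and 7 falls. COL5A3, below the filter, averaged 0.0333 FPKM in control and 0.587 FPKM with SFN+5-FU (log2 fold change 0.62 without the filter, adjusted p = 0.00806 by limma). No other chain below the filter was called higher there. In the same fit COL6A3 (-0.65), COL8A2 (-0.63), COL6A2 (-0.58), COL2A1 (-0.51), COL27A1 (-0.36) and COL9A2 (-0.27) were called lower (adjusted p = 0.000174 to 0.0460). COL7A1 and the chains below the filter were named after their values were seen.

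Collagen folding partners split. Of 9 tested, 1 rose and 3 fell with SFN, and 2 rose and 3 fell with SFN+5-FU (medians -0.12 and 0.04). SERPINH1, the collagen chaperone HSP47, rose from 27.5 ± 0.359 to 52.3 ± 6.60 and 59.3 ± 0.998 FPKM, log2 fold changes of 0.90 and 1.08. CRTAP, a partner of prolyl 3-hydroxylase, fell by 0.46 with SFN, and P3H3, of the prolyl 3-hydroxylase family, fell by 1.29 with SFN+5-FU. Among 10 protein disulfide isomerases and oxidases of the endoplasmic reticulum, 3 rose and 4 fell with SFN and 4 rose and 5 fell with SFN+5-FU. QSOX1 fell by 0.67 and ERO1B by 0.60 with SFN (ERO1B passed the filter only through the control libraries and averaged 0.853 FPKM in the treated ones), PDIA5 fell by 0.91 with SFN+5-FU, and the peroxiredoxin PRDX4 rose by 0.70 with SFN+5-FU.

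Genes of procollagen export and processing gave 0 rises and 4 falls of 9 with SFN, and 1 rise and 5 falls with SFN+5-FU. PCOLCE, an enhancer of procollagen C-proteinase, fell by 0.86 and 1.23, and SEC24D, a coat protein of transport vesicles, fell by 0.59 with SFN. BMP1, the procollagen C-proteinase, rose by 0.58 with SFN+5-FU (adjusted p = 0.0313, up to 0.101 in the alternatives and not called in 6 of 18). Of 5 tested genes of the other lysyl oxidases and copper supply, 2 rose and 3 fell with SFN, and 2 rose and 2 fell with SFN+5-FU. Of 3 tested matrix partners of lysyl oxidases, 2 fell with SFN and, with SFN+5-FU, 2 fell and 1 rose: fibronectin (FN1) fell by 0.69 and 1.24 and EFEMP2, a fibulin, by 0.88 and 1.17. EFEMP2 passed the filter only through the control libraries, with a mean of 0.88 FPKM in the treated ones. The FN1 call with SFN was lost in 3 of 19 alternatives (adjusted p up to 0.0594).

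Hypoxia markers outside the set gave 6 falls and no rise among 9 tested with SFN, and 9 falls of 9 with SFN+5-FU (medians -0.86 and -1.26, against -0.25 and -0.35 for the set). ANKRD37 fell by 1.73 and 2.67, and NDRG1 by 1.48 and 2.51. The counts of each list stand beside 50.0% and 66.2% of all tested genes called, and no list held a call in SFN+5-FU against SFN. Without SFN replicate 2, which leaves SFN with 2 libraries, 7 of the 9 hypoxia markers fell with SFN, and 7 fell and 1 rose in SFN+5-FU against SFN. The folding partners then gave 1 rise and 5 falls with SFN, and the collagen chains 0 rises and 6 falls. Of all tested genes, 56.9% were then called with SFN (30.0% higher and 26.9% lower). In SFN+5-FU against SFN 51.2% were then called (29.8% higher and 21.4% lower).

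**Figure D5:**
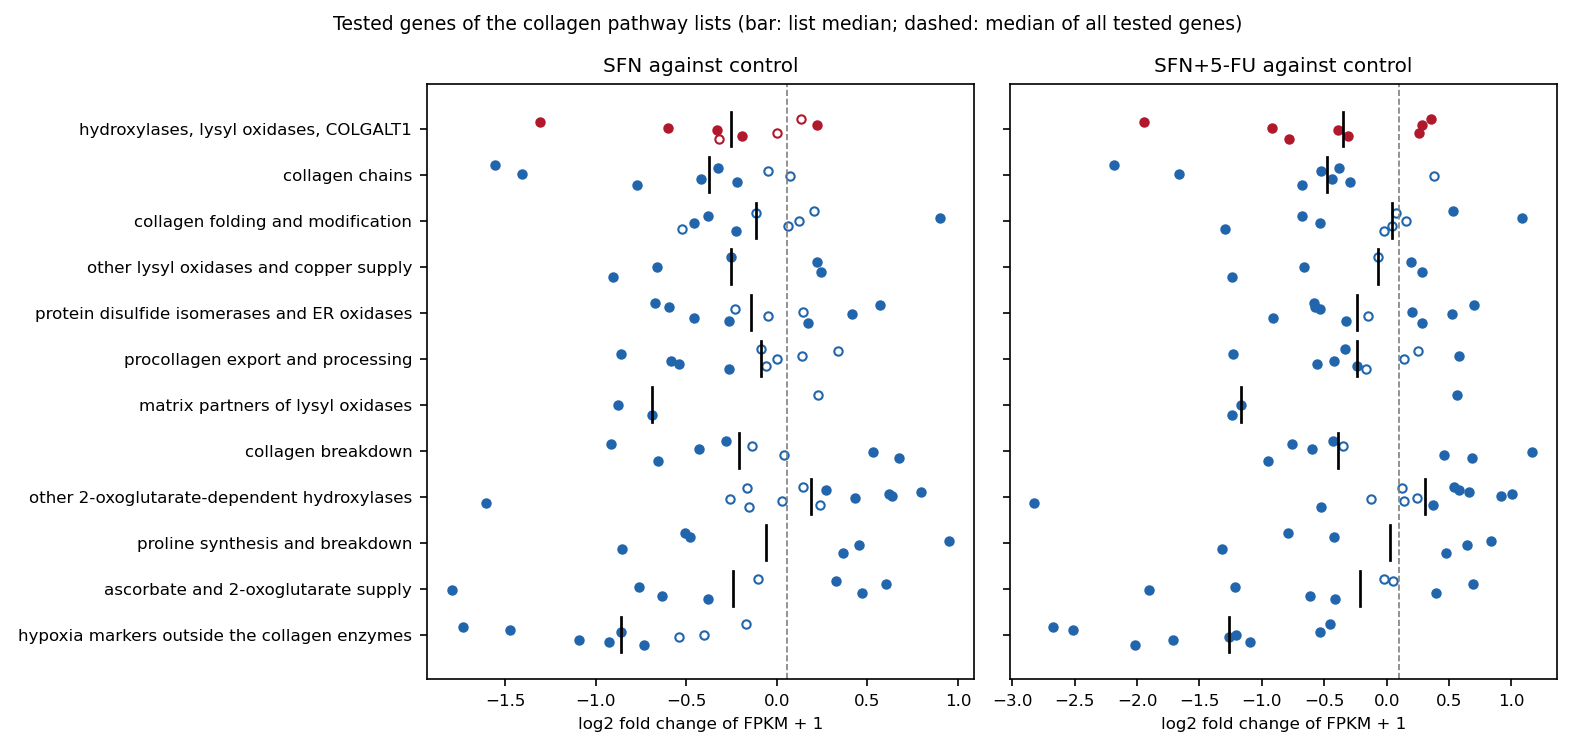
Log2 fold changes against control of the tested genes of each list, 1 point per gene (red for the enzymes described above, blue for the other lists), with SFN and SFN+5-FU in separate panels that have different horizontal scales. Points are filled where the gene was called, the black tick is the list median and the dashed line the median of all tested genes. The hypoxia markers have the lowest medians, -0.86 and -1.26, and the collagen chains hold no called gene above 0.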

How the data were processed

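The authors deposited FPKM values for 9 libraries, 3 per group, made from paired-end reads of poly(A)-selected libraries that mark strand with dUTP, per the labels' protocols. The submitters' processing notes name fastp, StringTie and edgeR without versions. For the aligner, the build and the annotation the entry is: not given in the sources used here. FPKM sums to 259184 to 272235 per library, and the depth in reads is unknown.

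The 12662 genes whose FPKM averaged 1 or more in all libraries together were taken as log2(FPKM + 1), which understates the fold changes of low genes. They entered 1 limma model with a trend of variance on mean (degrees of freedom: 6 residual, 3.2 prior), with p-values two-sided and Benjamini-Hochberg adjusted over all genes within each of 3 contrasts. A gene was called at an adjusted p of 0.05 or less. Genes that passed the filter only through the control libraries stay in the counts and medians of their lists, which favours falls. Spread is shared by all libraries, so a library that departs from its group widens every SE. Shares and ratios within a library were compared by exact permutation tests. Work used R 4.3.3, limma 3.58.1, Python 3.11.15, SciPy 1.17.1 and matplotlib 3.10.9. On simulated data the fit recovered 36 of 62 log2 changes of 0.5, 65 of 70 of 1 and 67 of 68 of 2, with 7 false calls. The simulation had independent noise, far fewer changed genes than were called here, and no library departing from its group.

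The genes and lists were chosen with earlier results of these data known. Of each list the text names, per contrast, up to 2 called genes of largest change, or the gene of highest mean FPKM where none is called, and 3 genes most like each tested gene of the set, of which 1 is not reported here. Names came from a table that matched 41002 of 41041 identifiers. Overlapping genes were read from GENCODE release 29. Promoters came from RefSeq on GRCh38.p14, matched by symbol for 8 of the 10 genes. Alternatives were other filters and pseudocounts, other scalings, library weights, a correction for GC content and length, a replicate block, and leaving out libraries. The replicate numbers showed no clear pairing of the libraries: of 9 pairs with the same number, 1 had deviations correlated above 0.1. With 3 libraries per group this check cannot exclude a shared source.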

Additional observations from a re-analysis of the deposited data

How the results depend on the processing

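Over 19 alternatives, the fold changes of the 8 tested genes gave 453 values, of which 403 kept direction and call, 23 lost a call, 19 gained one and 8 reversed. For the other named genes 1002 of 1031 kept both. The 8 reversals all concern values close to 0: P4HB with SFN against control was 0.000392 with a pseudocount of 5, 0.0424 with the GC and length correction, and 0.0062, 0.0523 and 0.0752 without control replicate 1, SFN replicate 1 and SFN replicate 3 (-0.128 to 0.0752 without 1 library). PLOD1 in SFN+5-FU against SFN was 0.0126 with library weights and 0.00315 without SFN replicate 1 (-0.0995 to 0.00315 without 1 library), and COLGALT1 with SFN against control was -0.0019 with library weights. In SFN+5-FU against SFN, PPIB (0.04) was -0.0093 after quantile normalization and -0.00855 without SFN replicate 3 (up to 0.0946 without SFN replicate 1), and OAT (0.06) was -0.00865 after quantile normalization and -0.0466 with the GC and length correction. The P4HA1 share with SFN turned to 0.269 percentage points without SFN replicate 2 (-3.82 without SFN replicate 1). Leaving out 1 library gave 4 to 5 of the 8 genes and 4845 to 7200 of all genes called with SFN, 7 to 8 and 7287 to 9461 with SFN+5-FU, and 0 to 5 and 0 to 6478 in SFN+5-FU against SFN, where the upper ends are those without SFN replicate 2. In that comparison library weights, which gave SFN replicate 2 the lowest weight (0.0893), called 7 of the 8 genes and 7432 of all, while using only the 2 groups compared called 0. A filter at a mean of 5 FPKM, where fewer genes are tested, called 3888 and 4903 genes against control (6333 and 8387 with the filter at 1). With the replicate number as a block, the calls among the 8 genes were 4, 8 and 0 in the 3 comparisons and 6038, 8151 and 0 over all genes. The same-number correlations were -0.143 to 0.107, and 3 of 9 libraries correlated best with their own number. The lost call was that of P4HA2 with SFN (adjusted p = 0.0611 by limma). The causes of these changes were not tested. The unknown depth limits what can be said of LOX, P4HA3 and PLOD2, whose FPKM is given to 2 decimals.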

Other observations

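Genes that supply the hydroxylases and their substrates were read by the same fit, beside 50.0% and 66.2% of all tested genes called with SFN and with SFN+5-FU against control. Of 8 tested genes of ascorbate and 2-oxoglutarate supply, 3 rose and 4 fell with SFN, and 2 rose and 4 fell with SFN+5-FU. IDH1, the cytosolic isocitrate dehydrogenase that makes 2-oxoglutarate, fell from 42.8 ± 1.5 FPKM in control to 11.6 ± 1.31 FPKM with SFN and 10.7 ± 0.355 FPKM with SFN+5-FU (mean ± SD, n = 3). IDH2, its mitochondrial relative, fell from 21.6 ± 2.39 to 12.4 ± 2.20 and 8.72 ± 0.980 FPKM. Their log2 fold changes were -1.80 and -0.76 with SFN and -1.90 and -1.22 with SFN+5-FU. Of 6 tested genes of proline synthesis and breakdown, 3 rose and 3 fell in each comparison with control. PYCR1 and PYCR3 both encode pyrroline-5-carboxylate reductases, the last step of proline synthesis. PYCR1 fell from 34.9 ± 2.13 to 19.1 ± 4.67 and 13.4 ± 0.740 FPKM, and PYCR3 rose from 2.06 ± 0.140 to 4.96 ± 0.822 and 4.50 ± 0.537 FPKM.

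Of 12 tested other hydroxylases that use 2-oxoglutarate, 5 rose and 1 fell with SFN, and 6 rose and 2 fell with SFN+5-FU (5 and 3, and 9 and 2, without SFN replicate 2). Without that library 56.9% and 74.7% of all tested genes were called in these comparisons. The hydroxylase that fell with SFN in the fit of all libraries was EGLN3, an oxygen-sensing prolyl hydroxylase and HIF-1 target, with 20.5 ± 1.80 FPKM in control, 6.75 ± 3.58 FPKM with SFN and 2.05 ± 0.318 FPKM with SFN+5-FU. RIOX2, a ribosomal oxygenase, rose by 0.79 on the log2 scale with SFN, and its relative RIOX1 by 1.01 with SFN+5-FU. Of 8 tested genes of collagen breakdown, 2 rose and 4 fell with SFN, and 3 rose and 4 fell with SFN+5-FU. The collagen receptor MRC2 fell by 0.92 and the gelatinase MMP9 rose by 0.67 with SFN. With SFN+5-FU the inhibitor TIMP1 rose from 56.2 ± 1.16 to 128 ± 11.1 FPKM and the gelatinase MMP2 fell from 2.12 ± 0.280 to 0.610 ± 0.0794 FPKM. MMP2 passed the filter only through the control libraries, with a mean of 0.802 FPKM in the treated ones.

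Where no gene of a list was called in SFN+5-FU against SFN, the gene of highest expression stood for it. The log2 fold changes there were -0.26 for COL9A3, 0.04 for PPIB, 0.19 for SLC31A1, -0.10 for PDIA6, 0.14 for KLHL12, -0.55 for FN1, 0.64 for TIMP1, 0.39 for RIOX1, 0.06 for OAT, -0.28 for IDH3B and -0.28 for ALDOA. Without SFN replicate 2, 8 of these 11 genes were called by limma: TIMP1 at 0.91 (adjusted p = 3.08e-05), IDH3B at -0.41 (adjusted p = 0.000283), RIOX1 at 0.58 (adjusted p = 0.000284), ALDOA at -0.41 (adjusted p = 0.000361), FN1 at -0.77 (adjusted p = 0.00300), SLC31A1 at 0.27 (adjusted p = 0.0103), PDIA6 at -0.15 (adjusted p = 0.0190) and KLHL12 at 0.16 (adjusted p = 0.0441). COL9A3, PPIB and OAT were not called. Of all tested genes, 51.2% were called in that fit (29.8% higher and 21.4% lower).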
